A study of Mus musculus with 6 samples.

Results

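The genes described here are the steroid hormone synthesis genes of the 13.5 dpc mouse ovary. They were chosen by name, and each symbol was matched to 1 Ensembl identifier, which gave 10 of the 48709 genes in the count table. The list holds the cholesterol transporter Star, the enzymes Cyp11a1, Hsd3b1, Hsd3b6, Cyp17a1, Hsd17b3, Srd5a1, Hsd17b1 and Cyp19a1, and the Leydig cell peptide Insl3. RNA-seq was performed on ovaries of wild type CD1 embryos, the outbred strain carried by both groups. Pregnant females were gavaged 4 times a day at 3 h intervals from 10.5 to 13.5 dpc, either with acetaminophen (APAP, 30 mg/kg per day) together with ibuprofen (IBU, 15 mg/kg per day) or with ethanol as control. There were 3 control and 3 APAP+IBU libraries, each made from a pool of gonads from several embryos and more than 1 dam, so a value is the mean of a pool and p-values measure the spread between pools. For the exposed samples the title mentions IBU and no second drug, and the exposure label mentions both.

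Steroid hormones are made from cholesterol in a fixed order. Star moves cholesterol into mitochondria, Cyp11a1 cleaves its side chain to form pregnenolone, 3-beta-hydroxysteroid dehydrogenases convert this to progesterone, Cyp17a1 leads to androgens, and Cyp19a1 (aromatase) turns androgens into oestrogens. In the fetal mouse gonad this work is known mainly from the Leydig cells of the testis, whereas the early fetal ovary is known for low enzyme levels and for lacking Leydig cells.

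The genes with the highest levels on the list, Hsd3b6 and Hsd3b1, are closely related neighbours, so the beginnings of their coding sequences are shown to let a reader see how far their reads can be told apart. Both lie on the minus strand of chromosome 3 of GRCm38, beside a further relative, Hsd3b2. Each line gives the first 90 coding bases 5′ to 3′ from GENCODE M21, at chr3:98810957-98811046 for Hsd3b6, chr3:98857875-98857964 for Hsd3b1 and chr3:98716471-98716560 for Hsd3b2. Capitals in Hsd3b6 mark bases that differ from Hsd3b1, and capitals in the other lines mark bases that differ from Hsd3b6.
Hsd3b6: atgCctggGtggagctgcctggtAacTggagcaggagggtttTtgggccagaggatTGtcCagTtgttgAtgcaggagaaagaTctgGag
Hsd3b1: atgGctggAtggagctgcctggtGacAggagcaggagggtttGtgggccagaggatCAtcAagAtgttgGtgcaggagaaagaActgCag
Hsd3b2: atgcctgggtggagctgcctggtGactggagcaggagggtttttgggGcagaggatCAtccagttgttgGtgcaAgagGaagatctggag
Over these 90 bases Hsd3b1 differed from Hsd3b6 at 12 positions and Hsd3b2 at 7. Over the 1119 coding bases, Hsd3b6 and Hsd3b1 were 90.0% identical with a longest identical run of 72 bases, and Hsd3b6 and Hsd3b2 were 94.4% identical with a run of 141 bases. Of the 1753 windows of 50 bases in the Hsd3b6 transcript, 38 also occurred in Hsd3b1, 237 in Hsd3b2 and 220 in Hsd3b3, another relative. A single read inside such a window matches more than 1 gene, although its mate may lie outside. How the counting treated such reads is not given, so they may be split between relatives or left out. The part of the Hsd3b6 transcript concerned is small for Hsd3b1 and larger for Hsd3b2 and Hsd3b3. Hsd3b2 had 684 counts over the 6 libraries and Hsd3b3 had 6, against 4239 for Hsd3b6 and 3181 for Hsd3b1.

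Total counts ran from 37811968 to 48954631 per library. The label ovary was checked against marker lists. All 7 pregranulosa genes and all 5 germ cell genes were detected, with summed levels of 710 to 964 CPM and 993 to 1412 CPM (CPM, read counts relative to library size after TMM scaling). The granulosa regulator Foxl2 ranged from 0.944 to 8.16 CPM. Markers of other tissues were present too. The 8 Sertoli genes summed to 28.6 to 62.9 CPM, the 4 Y-linked genes to 2.26 to 9.37 CPM and the 6 adrenal cortex genes to 4.72 to 7.42 CPM, with Cyp11b2 at 0 counts in every library. In replicate 3 of each group the 8 liver genes summed to 1870 CPM (control) and 3025 CPM (exposed), while the other 4 libraries had sums of 170 to 518 CPM. The 8 spermatid genes summed to 35.4 to 135 CPM in controls and 1.59 to 5.34 CPM in APAP+IBU ovaries, so these groups were separate.

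The comparison asked whether the level of each gene differed between control and APAP+IBU ovaries. Tested over 20167 genes by edgeR (quasi-likelihood F, Benjamini-Hochberg), 0 members passed the adjusted threshold of 0.05 in the 6 libraries, and the adjusted p of members ran from 0.692 to 0.919. The share of all genes called was 0% there, and DESeq2 called 0 members and 0.720% of its genes. The expression filter kept 8 members and removed Cyp19a1 and Insl3. Of the 8, Cyp17a1 alone had an unadjusted p under 0.05, against 6.22% of all tested genes. The groups did not overlap for Cyp17a1 alone of the 10, against 10.7% of all tested genes. Neither count sets the members apart from that background. When every gene with at least 1 count was tested, Hsd17b3 joined Cyp17a1 at an unadjusted p under 0.05, beside 7.16% of all genes in edgeR. The log2 fold change (APAP+IBU over control) was negative for 6 and positive for 2 of the 8, with a median of -0.43 beside -0.005 over all tested genes. Without control replicate 2 the member median was -0.145 (all genes -0.003). For any difference between pools, the number of steroid-making cells and their RNA per cell cannot be told apart.

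**Figure D1:**
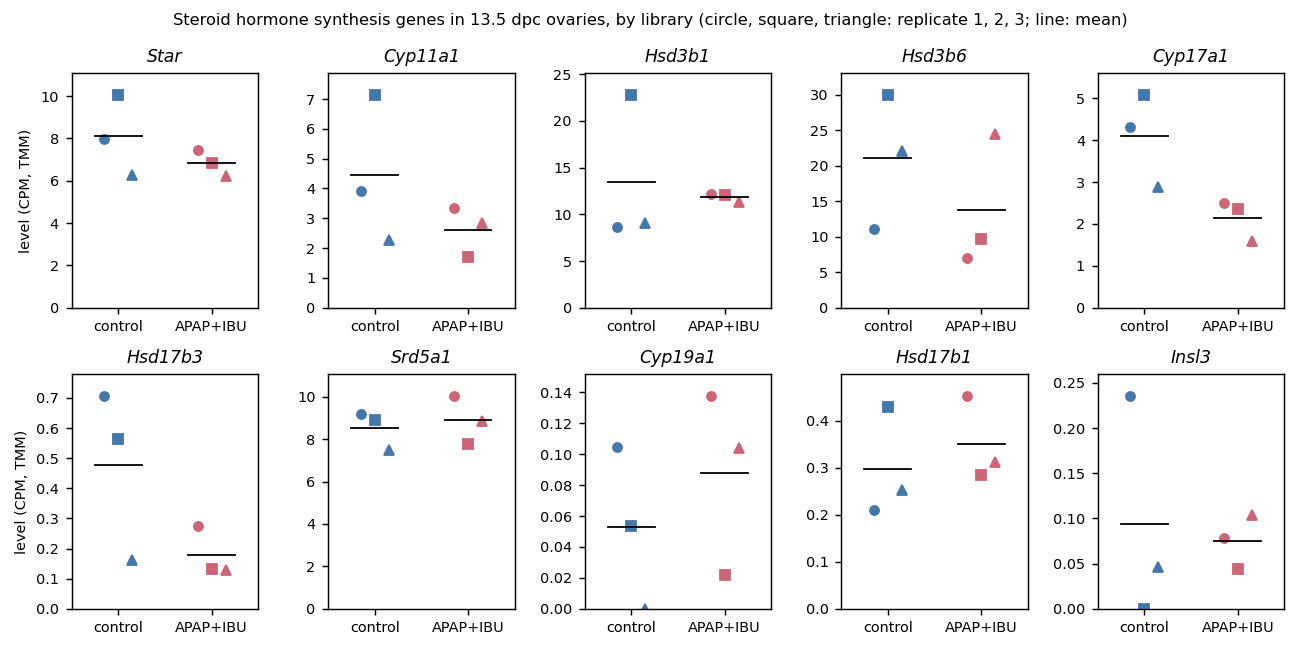
Level (CPM after TMM scaling, linear axes from 0) of each of the 10 genes in the 3 control and 3 APAP+IBU libraries, with the group mean as a line. Cyp17a1 is the panel in which the groups are apart, with 2.88 to 5.09 CPM in controls and 1.59 to 2.50 CPM in APAP+IBU ovaries.

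Levels were first compared between genes per length, as CPM per kb of exon averaged over the 6 libraries. Hsd3b6 came first with 9.65 (lowest library 3.85, highest 16.7), followed by Hsd3b1 with 6.84 (4.65 to 12.3). Next stood Srd5a1 with 3.00 (2.58 to 3.46) and Star with 1.82 (1.52 to 2.45). Cyp17a1 had 1.13 (0.573 to 1.84) and Cyp11a1 0.735 (0.354 to 1.49) on the same per-length scale. Hsd17b1 (0.242), Hsd17b3 (0.236), Insl3 (0.136) and Cyp19a1 (0.0156) closed the order. The value of Insl3 divides by all 623 exon bases. On the 219 bases that no other gene shares it would be 0.387 (0 to 1.08), above Hsd17b1 and Hsd17b3 in the order of means, so its place there is uncertain. Among neighbours, Hsd3b6 overlapped Hsd3b1, Star overlapped Cyp17a1, Cyp17a1 overlapped Cyp11a1, and the last 4 overlapped each other in turn. Srd5a1 did not overlap either neighbour, nor did Cyp11a1 and Hsd17b1. Among the 32611 genes with at least 1 count and a known length, Hsd3b6 was at the 81.2nd percentile of level per length, Cyp11a1 at the 53.4th and Cyp19a1 at the 11.8th. In every library the level per length of both 3-beta-hydroxysteroid dehydrogenase genes was above that of Star, Cyp11a1 and Cyp17a1, which act before and after them.

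**Figure D2:**
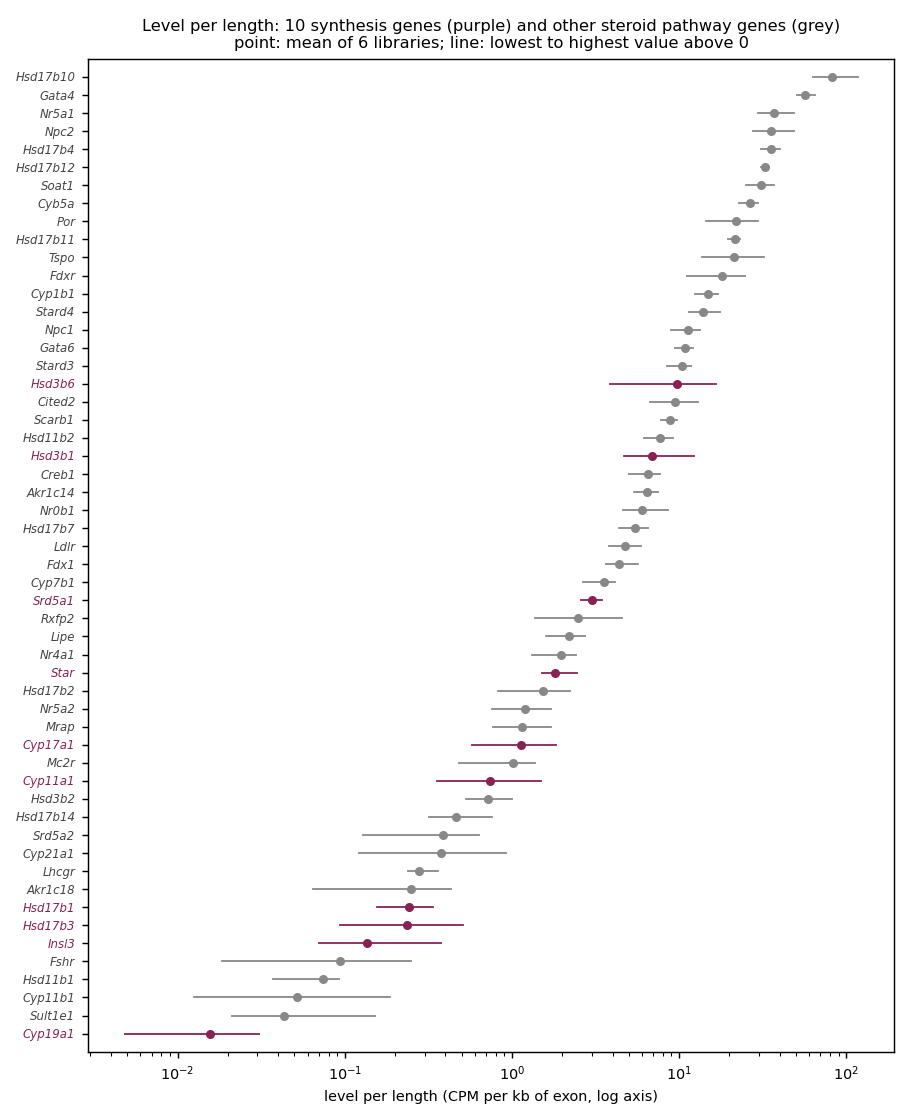
Level per length (CPM per kb of exon, log axis) of the 10 synthesis genes in purple and the other detected steroid pathway genes in grey, as the mean of 6 libraries with a line from the lowest to the highest library above 0. The synthesis genes run from 0.0156 for Cyp19a1 to 9.65 for Hsd3b6, while the regulators Nr5a1 and Gata4 had 37.1 and 56.9.

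Star (ENSMUSG00000031574, chromosome 8, 25806555 to 25815982 of GRCm38) brings cholesterol to the inner mitochondrial membrane, the step that limits steroid output. Replicates 1, 2 and 3 had levels of 7.97, 10.1 and 6.29 CPM among controls and of 7.43, 6.86 and 6.25 CPM among APAP+IBU ovaries, and all later values follow this order. Control replicate 2 was the highest and the groups overlapped. On the log2 scale the fold change was -0.24 (standard error 0.22, 95% confidence interval -0.76 to 0.27, adjusted p = 0.737 in edgeR's test).

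Cyp11a1 (ENSMUSG00000032323, chromosome 9, 58006411 to 58027023) encodes the side chain cleavage enzyme, which commits cholesterol to steroid synthesis. Control levels were 3.91, 7.15 and 2.26 CPM, and APAP+IBU levels were 3.33, 1.70 and 2.84 CPM. Control replicate 2 was again the highest, control replicate 3 lay inside the exposed range, and the groups overlapped. Fitted over all 6 libraries, its log2 fold change was -0.76 (standard error 0.44, interval -1.77 to 0.26, adjusted p = 0.692 in edgeR). Counting error alone would give a chi-square per degree of freedom near 1, and the pools gave 56.7 within controls and 12.5 within the exposed group. A lincRNA, Gm17322, shares 145 of the 4804 exon bases of Cyp11a1 on the same strand.

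Hsd3b1 (ENSMUSG00000027871, chromosome 3, 98852194 to 98859794) makes progesterone from pregnenolone. It had 8.63, 22.8 and 9.05 CPM in controls and 12.2, 12.1 and 11.3 CPM in APAP+IBU ovaries. The exposed pools agreed within sampling noise (chi-square per degree of freedom 0.928), while control replicate 2 stood far above the other controls (chi-square per degree of freedom 189). Its log2 fold change was -0.19 (standard error 0.37, interval -1.03 to 0.66, adjusted p = 0.869 in edgeR), and without control replicate 2 it was 0.42 (adjusted p = 0.980).

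Hsd3b6 (ENSMUSG00000027869, chromosome 3, 98805504 to 98814443) carries out the same reaction. Levels were 11.1, 30.0 and 22.1 CPM in controls and 6.94, 9.63 and 24.5 CPM after exposure. Replicate 3 was high in the exposed group, control replicate 2 was the highest of all, and the groups overlapped. Exposed over control, the log2 fold change was -0.62 (standard error 0.51, interval -1.80 to 0.55, adjusted p = 0.716 in edgeR). Without APAP+IBU replicate 3 it was -1.37 and without control replicate 2 it was -0.28. The 7 erythroid genes had sums of 5850, 13650 and 9199 CPM in controls and 2486, 4432 and 8619 CPM in exposed pools, with the highest library again control replicate 2 and the highest exposed one again replicate 3. Their part in the level of Hsd3b6 was not tested.

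The pair did not keep 1 ratio across pools. Per length, Hsd3b6 over Hsd3b1 was 1.32, 1.35 and 2.52 among the controls and 0.585, 0.818 and 2.24 among the exposed pools. Replicate 3 had the highest ratio in both groups, and in replicates 1 and 2 the exposed ratios were below 1 and the control ratios above it. The mean log2 ratio was 0.72 in controls and 0.03 in exposed ovaries, with p = 0.4 in an exact two-sided permutation test that cannot go below 0.1 with 3 libraries a group. This ratio was computed after the levels had been seen. The replicate 3 libraries are also those with the liver gene sums of 1870 and 3025 CPM, and the part of that tissue in the ratio was not tested.

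Cyp17a1 (ENSMUSG00000003555, chromosome 19, 46667165 to 46673172) encodes the hydroxylase and lyase that forms androgens. The controls held 164, 190 and 125 counts and the exposed libraries 127, 108 and 61. As levels these were 4.30, 5.09 and 2.88 CPM in controls and 2.50, 2.36 and 1.59 CPM in APAP+IBU ovaries. Each exposed pool was below each control pool, with the smallest gap between control replicate 3 and APAP+IBU replicate 1. The mean control level was 4.09 ± 1.12 CPM (SD, n = 3) and the mean exposed level 2.15 ± 0.492 CPM (SD, n = 3). Its log2 fold change was -0.92 (standard error 0.30, interval -1.62 to -0.22, unadjusted p = 0.0161, adjusted p = 0.692 in edgeR), and the exact two-sided permutation p was 0.1, the smallest possible. Without control replicate 2 the log2 fold change was -0.74 (unadjusted p = 0.0693 in edgeR). The spermatid list split the groups in the same direction, with all 8 genes lower at an unadjusted p under 0.05 in edgeR and 0 after adjustment, and its part in the level of Cyp17a1 was not tested.

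Hsd17b3 (ENSMUSG00000033122, chromosome 13, 64058266 to 64089230) reduces androstenedione to testosterone and is a Sertoli cell enzyme in the fetal testis. The controls held 27, 21 and 7 counts and the exposed libraries 14, 6 and 5. Exact Poisson 95% intervals, which cover counting error alone, were 17.8 to 39.3 for the highest and 1.62 to 11.7 for the lowest count. Control replicate 3 lay with the exposed pools, so the groups overlapped. Its log2 fold change was -1.37 (standard error 0.62, interval -2.80 to 0.07, adjusted p = 0.692 in edgeR). The Sertoli sum was also highest in control replicates 1 and 2, at 62.9, 57.7 and 28.6 CPM in controls and 36.0, 32.1 and 34.5 CPM in exposed ovaries. Its largest part came from Aard, while Cbln4 and Fgf9 were highest in an exposed library. In edgeR 2 of 8 genes were lower at an unadjusted p under 0.05, beside 6.22% of all tested genes in either direction. The part of this list in the level of Hsd17b3 was not tested.

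Srd5a1 (ENSMUSG00000021594, chromosome 13, 69573449 to 69611442), which reduces testosterone to dihydrotestosterone, was the steadiest member. It had 9.21, 8.89 and 7.51 CPM in controls and 10.1, 7.77 and 8.85 CPM after exposure. The groups overlapped throughout, and the highest library was 1.34 times the lowest. The log2 fold change was 0.06 (standard error 0.19, interval -0.37 to 0.49, adjusted p = 0.919 in edgeR). Of its 2595 windows of 50 bases, 428 are shared with the overlapping transcript Gm17108, which had 140 counts in all.

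On the oestrogen branch, Hsd17b1 (ENSMUSG00000019301, chromosome 11, 101078411 to 101080527), which reduces oestrone to oestradiol, had 8, 16 and 11 counts in controls and 23, 13 and 12 after exposure. The groups overlapped and the log2 fold change was 0.25 (standard error 0.44, interval -0.77 to 1.26, adjusted p = 0.856 in edgeR). Cyp19a1 (ENSMUSG00000032274, chromosome 9, 54165937 to 54268110) was read 4, 2 and 0 times among controls and 7, 1 and 4 times among exposed libraries, so aromatase RNA was at the limit of detection in both groups. The exact two-sided permutation p for Cyp19a1 was 0.6. A library count of 0 allows up to 3.69 counts by the exact Poisson interval, and a difference was not detectable at this depth.

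Insl3 (ENSMUSG00000079019, chromosome 8, 71689214 to 71690575), a peptide of Leydig cells that drives testis descent, was read 9, 0 and 2 times among controls and 4, 2 and 4 times among exposed libraries. Totals were 11 and 10 counts, the groups overlapped and the exact two-sided permutation p was 0.8. Jak3 shares 404 of its 623 exon bases on the same strand, which leaves 219 bases on which a read belongs to Insl3 alone, and its counts may stand for those bases only. The 5 fetal Leydig markers outside the list summed to 313 to 456 CPM in controls and 335 to 378 CPM in exposed ovaries, mostly from Dlk1 and Thbs2, which other cells also express.

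**Figure D3:**
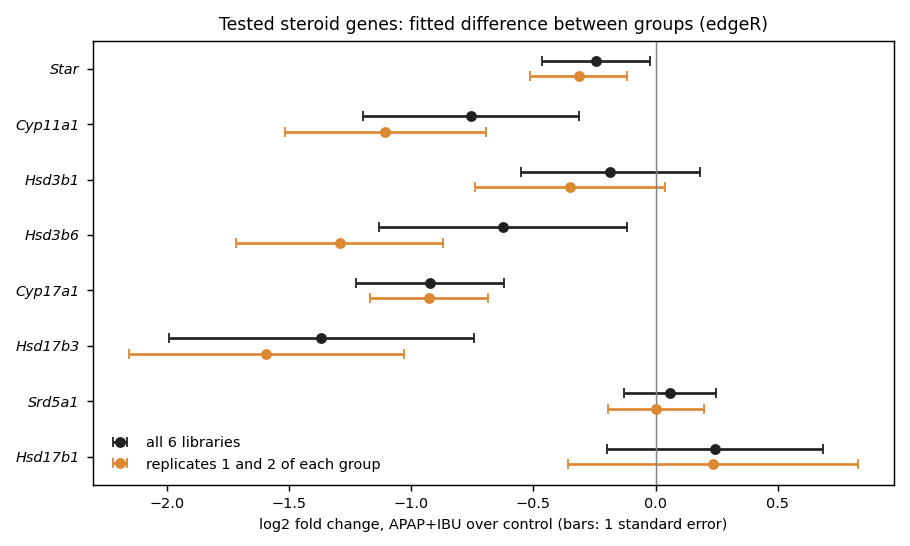
Log2 fold change (APAP+IBU over control, edgeR) of the 8 tested genes with 1 standard error, for all 6 libraries in black and for replicates 1 and 2 of each group in orange. Cyp17a1 stays near -0.92 in both, whereas Hsd3b6 moves from -0.62 to -1.29.

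Control replicate 2 was the highest of the 6 libraries for 5 members, namely Star, Cyp11a1, Hsd3b1, Hsd3b6 and Cyp17a1. The Y-linked genes Ddx3y, Uty, Kdm5d and Eif2s3y were also highest there, with a sum of 9.37 CPM against 2.26 to 2.86 CPM in the other 5 libraries. The erythroid sum was highest there too (13650 against 2486 to 9199 CPM). The adrenal cortex sum was 7.42 CPM there, close to the 7.32 CPM of control replicate 3. From that list Cyp11b1 (22 counts against 0 to 11) and Cyp21a1 were highest there, while Mc2r, Mrap and Akr1b7 were highest in other libraries. The part of these marker genes in the result was not tested. Without control replicate 2 the log2 fold change was -0.06 for Star, -0.23 for Cyp11a1, 0.42 for Hsd3b1, -0.28 for Hsd3b6 and -0.74 for Cyp17a1. The values of the other 4 were thus nearer to 0 and that of Hsd3b1 changed sign. Leaving out the highest control raises a log2 fold change by construction, and leaving out the lowest control lowers it. Without this library 0 members had an unadjusted p under 0.05 in edgeR, beside 3.35% of all genes, and 3 members did not overlap (Cyp17a1 lower, Hsd3b1 and Hsd17b1 higher), beside 15.5%. Control replicate 3 was the lowest control for Star, Cyp11a1, Cyp17a1, Hsd17b3, Srd5a1 and Cyp19a1. Without it 3 members (Cyp11a1, Cyp17a1 and Hsd17b3) had an unadjusted p under 0.05 in edgeR, beside 30.5% of all genes, and these and Star did not overlap, beside 48.6%.

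**Figure D4:**
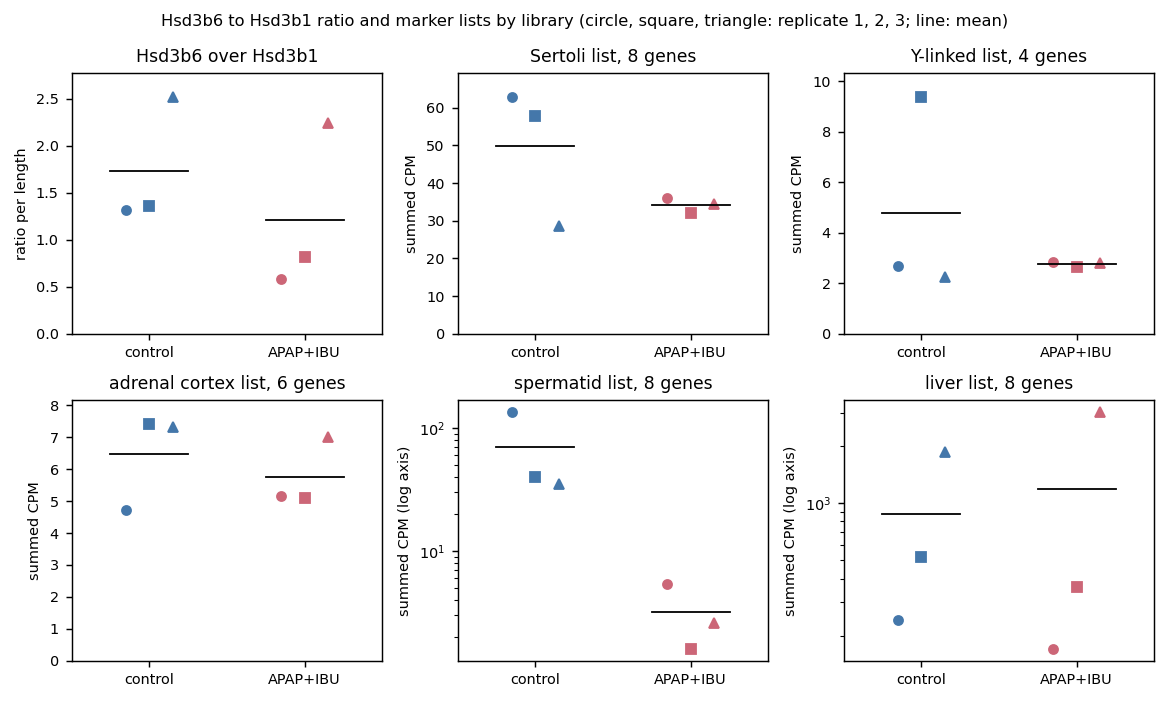
Ratio of Hsd3b6 to Hsd3b1 per length and summed levels (CPM) of marker lists in each library, with the group mean as a line and log axes for the spermatid and liver lists. Replicate 3 of both groups has the highest ratio (2.52 and 2.24) and the highest liver sum (1870 and 3025 CPM), and control replicate 2 the highest Y-linked sum (9.37 CPM).

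Replicates 1 and 2 of each group were also fitted alone in edgeR, where 27.2% of all tested genes passed the adjusted threshold and 12.9% passed with a lower level after exposure. Of the 8 tested members 1 was called, Cyp17a1, which was lower in exposed ovaries (log2 fold change -0.93, standard error 0.24, adjusted p = 0.0299). Hsd3b6 (-1.29, adjusted p = 0.0595), Hsd17b3 (-1.59, adjusted p = 0.0739) and Cyp11a1 (-1.11, adjusted p = 0.0854) had an unadjusted p under 0.05 and missed the adjusted threshold in that edgeR fit. That makes 4 members at an unadjusted p under 0.05, beside 41.0% of all genes. In these 4 libraries 5 members did not overlap, all of them lower after exposure. Over all genes 68.5% did not overlap in either direction, and the share for lower levels alone is not given here. DESeq2 on the same libraries called Cyp17a1 (adjusted p = 0.0213) and Cyp11a1 (adjusted p = 0.0230) lower, beside 9.02% of all genes. A correction of these libraries for the length and GC content of genes left Cyp17a1 called in edgeR (-0.85, adjusted p = 0.0476), beside 8.21% of all genes called lower, and 5 members at an unadjusted p under 0.05, beside 30.9%. With 1 of 8 tested members called in each edgeR fit, the rate of the list cannot be told from that of all genes. The 5 of 8 at an unadjusted p under 0.05 after the correction stood above the share of all genes. So did the 2 of 10 called lower by DESeq2, and counts this small decide nothing.

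The other steroid pathway genes were taken from a list of 47, of which 45 were matched in the table and 42 were tested. With all 6 libraries 1 was higher and 1 lower at an unadjusted p under 0.05, beside 6.22% of all tested genes in either direction. After adjustment 0 passed, and 16 log2 fold changes were positive and 26 negative with a median of -0.04. Among the 9 genes of cholesterol uptake and transport 5 values were positive and 4 negative. Npc2, which exports cholesterol from lysosomes, had 216 ± 55.3 CPM in controls and 168 ± 22.3 CPM in exposed ovaries (SD, n = 3 each, adjusted p = 0.692 in edgeR). Soat1, which esterifies cholesterol for storage, had 279 ± 44.4 and 325 ± 43.5 CPM (SD, n = 3 each, adjusted p = 0.700 in edgeR).

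All 4 electron transfer partners, which feed electrons to the cytochrome P450 enzymes, had negative values with a median log2 fold change of -0.19, and none passed. For 2 of them the sign turned with the length and GC correction (Fdxr 0.045, Por 0.025) and without control replicate 1 (Fdxr 0.048, Por 0.126). Cyb5a, which favours the lyase step of Cyp17a1, had a log2 fold change of -0.20 (adjusted p = 0.698 in edgeR), and Por, the reductase of microsomal P450 enzymes, had -0.11 (adjusted p = 0.881). Of the 8 regulators 3 were positive and 5 negative. Nr5a1 (SF-1), the nuclear receptor that activates most of these enzyme genes, had 207, 166 and 125 CPM in controls and 140, 162 and 144 CPM in exposed pools. Those values overlapped (log2 fold change -0.16, adjusted p = 0.780 in edgeR). Gata4, its partner in gonadal somatic cells, had 0.07 (adjusted p = 0.864).

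The 5 hormone receptors included Rxfp2, the receptor of Insl3, with a log2 fold change of -0.52 (adjusted p = 0.699 in edgeR), and Mrap, which escorts the ACTH receptor, with -0.29 (adjusted p = 0.782). Among the other enzymes, Cyp21a1, the hydroxylase of corticosteroid synthesis, had 1.23, 1.98 and 0.645 CPM in controls and 0.296, 0.262 and 0.417 CPM in exposed ovaries. Each exposed library was below each control, and edgeR fitted -1.98 on the log2 scale (standard error 0.48, adjusted p = 0.349). DESeq2 gave Cyp21a1 an adjusted p of 0.0307, beside 0.720% of all genes called. Without control replicate 3 edgeR gave 0.0391, in a fit where 30.5% of all genes had an unadjusted p under 0.05. Counts of Cyp21a1 were low, from 12 to 74 per library. A near-identical pseudogene of Cyp21a1 may share its reads.

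Srd5a2, the second 5-alpha reductase, had 0.341, 0.616 and 0.207 CPM in controls and 0.651, 1.03 and 0.885 CPM after exposure. Here each exposed library was above each control, and the fitted value was 1.14 on the log2 scale (standard error 0.46, adjusted p = 0.692 in edgeR). The groups also did not overlap for Hsd17b4 (-0.25, adjusted p = 0.692), a peroxisomal enzyme of fatty acid oxidation, nor for Hsd17b12 (-0.14, adjusted p = 0.704), an enzyme of fatty acid elongation. Together 4 of the 42 tested genes did not overlap, beside 10.7% of all tested genes. Hsd17b10, a mitochondrial dehydrogenase and the highest of the list per length at 81.9 CPM per kb, had a log2 fold change of -0.30 (adjusted p = 0.700 in edgeR).

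The 250 bases before the annotated RefSeq starts on GRCm38.p6 were searched on both strands for a known binding motif of Nr5a1, CAAGGTCA or CAAGGCCA. Windows were at hand for 7 members, with 3 for Cyp19a1 and 2 for Cyp11a1, and not for Star, Cyp17a1 and Hsd17b1. None of them held an exact copy of either motif, and 3.28% of all 32851 windows did. With so few windows at that share, finding none is not informative. The windows of Hsd3b1 and Hsd3b6 were 63.8% identical over the 213 bases that an alignment with gaps paired. The 90.0% of their coding sequences was counted base by base without gaps, so these are unlike measures.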

How the data were processed

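Polyadenylated RNA of 3 control and 3 APAP+IBU pools of 13.5 dpc ovaries was sequenced from stranded libraries. Reads were mapped by the authors to mm10 (TopHat2 2.0.14, Bowtie2 2.1.0, per the submitters' processing notes), counted them per gene with HTSeq 0.6.1 on Ensembl annotation, and deposited raw counts without normalisation. The strand setting of the counting is not given in the sources used here. Groups came from the exposure label.

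From the deposited counts, edgeR 4.0.16 (R 4.3.3) with TMM scaling, its expression filter and the quasi-likelihood test was fitted over all 6 libraries, with Benjamini-Hochberg adjustment over 20167 genes. Log2 CPM used a prior count of 1. Members that the filter removed were tested with an exact permutation test. The correction for length and GC content used a loess span of 0.3. Positions, lengths and coding sequences came from GENCODE M21 on GRCm38, the assembly of mm10, and windows before starts from RefSeq. The fits were tested on simulated data. Libraries of one group differed by a chi-square per degree of freedom of 17.2 to 143, so each one was kept as a separate replicate.

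The members and lists were chosen with earlier results of these data known. Named genes are all 10 members, pathway genes with an unadjusted p under 0.05 or separate groups, and the 2 highest per length of each role. Hsd17b8 and Sts were not matched in the table and were not analysed here. Alternatives were DESeq2 1.42.0, other scalings and filters, a replicate block, the length and GC correction, leaving out each library, and replicates 1 and 2 alone. The last of these with the correction, and the Hsd3b6 to Hsd3b1 ratio, were added after the data were seen.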

Additional observations from a re-analysis of the deposited data

How the results depend on the processing

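Across 18 alternatives the log2 fold change of Cyp17a1 ran from -1.12 to -0.74 and was negative in all 18, with an unadjusted p under 0.05 in 17 and an adjusted p under 0.05 in 3. No alternative that kept at least 5 libraries called a member. Pathway genes called numbered 1 with DESeq2 (Cyp21a1), beside 0.720% of all genes. Members at an unadjusted p under 0.05 numbered 2 when every gene with at least 1 count was tested, beside 7.16%. With replicates 1 and 2 alone, 1 member and 14 of 43 tested pathway genes were called, beside 27.2% of all genes. At an unadjusted p under 0.05 there were 4 members and 17 pathway genes, beside 41.0%. For 5 members the groups did not overlap, beside 68.5% in either direction. DESeq2 on these 4 libraries gave 2, 13, 2, 19 and 5 in the same order. The shares of all genes in either direction are not given for that fit, so these counts cannot be set against a background. Of 44 tested pathway genes 9 were called lower in DESeq2, beside 9.02% of all genes. With the length and GC correction edgeR gave 1, 4, 5 and 9 for the first 4 counts. There 4 of 43 tested pathway genes were called lower, beside 8.21% of all genes, and 30.9% of all genes had an unadjusted p under 0.05. Leaving out 1 library gave 0 to 3 members and 1 to 17 pathway genes at an unadjusted p under 0.05, 0 members and 0 to 1 pathway genes called, and 1 to 4 members that did not overlap. The lowest count of members at an unadjusted p under 0.05 came without control replicate 2, beside 3.35% of all genes. The highest counts came without control replicate 3, beside 30.5% of all genes at that threshold and 48.6% without overlap. Over the fits that left out 1 library, Hsd3b1 ran from -0.425 to 0.424, Srd5a1 from -0.046 to 0.138 and Hsd17b1 from -0.001 to 0.591, with the sign turned for Hsd3b1 without control replicate 2, for Srd5a1 without control replicate 3 (-0.024) or APAP+IBU replicate 1, and for Hsd17b1 without APAP+IBU replicate 1. Signs also turned for Hsd3b1 under the replicate block with the length and GC correction (0.035) and for Srd5a1 in DESeq2 on the 4 libraries (-0.005). The cause was not tested. Over all tested genes, deviations of same-numbered libraries correlated at -0.07, -0.02 and -0.04, which showed no pairing by number. Such a correlation cannot exclude one. The liver sum and the Hsd3b6 to Hsd3b1 ratio were highest in replicate 3 of both groups. The replicate block left 0 members called and Cyp17a1 at -0.92 (adjusted p = 0.913 in edgeR). Members under 30 counts a library (Hsd17b3, Hsd17b1, Cyp19a1 and Insl3) were limited by depth.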
